A study of Mus musculus with 2 samples.

Results

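Spleen natural killer (NK) cells in which only Cd27 was detected were set against spleen NK cells in which only Itgam, the gene of CD11b, was detected. The cells were chosen by their own RNA counts. A CD27-only cell had at least 1 UMI of Cd27 and 0 of Itgam, and a CD11b-only cell had at least 1 UMI of Itgam and 0 of Cd27. A UMI, or unique molecular identifier, stands for 1 captured RNA molecule. Of 5489 spleen cells that carried a single hashtag, 1015 were CD27-only and 1680 were CD11b-only, 2695 cells in all. A further 685 cells had UMIs of both genes and 2109 of neither. The whole series held 7479 such single-hashtag cells from 3 tissues.

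The cells came from C57BL/6 mice aged 12 weeks injected under the skin with MC38, a colon carcinoma line of the mouse, per the labels. They were sorted as negative for lineage markers and positive for NK1.1 and CD49b, marked by hashtag antibodies, mixed, and run in 1 droplet lane for single-cell RNA sequencing. The 4 spleen populations were named ad libitum (AL), fasted (Fast), refed (ReFed) and Naive in the deposited tag list. The feeding was ad libitum or a cyclic fasting diet. The labels state neither the number of mice behind a population nor the meaning of Naive, whether its mice carried tumours included. Each population carried 1 hashtag and was therefore 1 sample.

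The population of every cell below rests on the antibody barcode it carried, so the 4 barcodes are shown. They are 15 bases long and differ from each other at 10 to 13 positions.
fasted: gagtctgccagtatc
refed: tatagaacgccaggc
ad libitum: tgcctatgaaacaag
naive: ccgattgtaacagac

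In mice, NK cells mature through stages that are read from a pair of surface proteins. CD27, a receptor of the tumour necrosis factor receptor family, marks the earlier stages, and CD11b, an integrin chain that pairs with CD18, is gained as cells mature. Cells with CD27 alone are less mature and common in bone marrow and lymph nodes, whereas cells with CD11b alone are mature circulating cells of blood and spleen with a ready cytotoxic machinery. The stages are defined on protein. Here they were read from RNA, which misses many molecules in each cell, so that the names CD27-only and CD11b-only describe detection and not the absence of the other protein.

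Cd27 lies on chromosome 6 from 125232622 to 125237010 and Itgam on chromosome 7 from 128062640 to 128118491 (mm10, GENCODE M21 gene models). Both genes chose the cells and were not tested. Most members sat at the edge of the rule. Of the CD27-only cells, 672 (66.2%) had exactly 1 Cd27 UMI, and of the CD11b-only cells, 1007 (59.9%) had exactly 1 Itgam UMI. The mean was 1.54, 1.42, 1.53 and 1.59 Cd27 UMIs per CD27-only cell in the ad libitum, fasted, refed and naive populations, and 1.64, 1.48, 1.63 and 1.62 Itgam UMIs per CD11b-only cell. Among the cells just outside, 302 of the 685 with both genes had 1 UMI of each.

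The gates differed in depth. CD27-only cells had medians of 5516, 4069, 5712 and 5063 UMIs in the ad libitum, fasted, refed and naive populations, and CD11b-only cells had 4092, 3414, 4211 and 4325. In each population the CD27-only cells were the deeper. The summed UMIs ranged from 972154 to 1893407 over the CD27-only sums and from 1137695 to 3070858 over the CD11b-only sums. No cell barcode occurred more than once. Free RNA can also place a UMI in a cell that does not express the gene. As a measure of this, cells of other types were taken from all tissues of the series and not from the spleen alone. Cd27 was seen in 6 of 49 cells rich in monocyte or macrophage markers (12.2%, median 11200 UMIs), against 31.0% of all spleen cells (median 4071 UMIs). Itgam was seen in 16 of 215 cells of all tissues rich in T cell genes (7.44%, median 7872 UMIs), against 43.1% of all spleen cells. Both shares lay above those in cells of the other types, which were deeper.

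The ad libitum population held the smallest share of CD27-only cells. CD27-only cells made up 268 of the 923 cells in the 2 gates in the ad libitum population (29.0%, exact 95% interval 26.1% to 32.1%). The share was 271 of 659 in the fasted population (41.1%, 37.3% to 44.99%), 303 of 693 in the refed population (43.7%, 40.0% to 47.5%) and 173 of 420 in the naive population (41.2%, 36.4% to 46.1%). The 3 latter intervals overlapped each other and did not overlap that of the ad libitum population. Because a deeper cell is more likely to show either gene, cells with at least 1500 UMIs were also thinned to 1500. The shares were then 28.8%, 40.6%, 40.8% and 39.2% in the same order. The thinned ad libitum interval (24.8% to 33.0%) overlapped that of the naive population (32.5% to 46.1%). It did not overlap those of the fasted (35.5% to 45.9%) and refed populations (35.8% to 45.9%). The intervals cover counting error only. With 1 population per feeding state and no replicate mice, no test of these shares was possible.

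**Figure D1:**
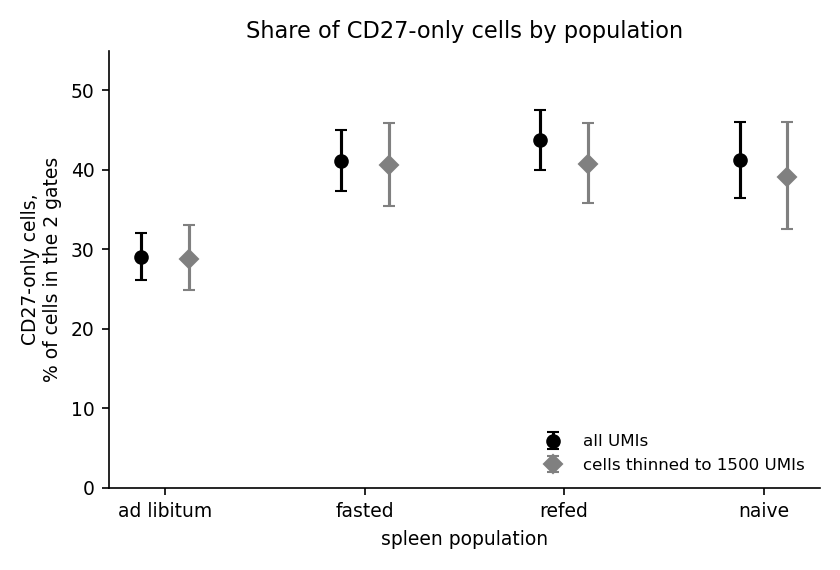
CD27-only cells as a percentage of the CD27-only and CD11b-only cells together, for the 4 spleen populations on the horizontal axis. Black circles are all UMIs and grey diamonds are cells thinned to 1500 UMIs, with exact 95% binomial bars. The ad libitum share is the lowest under both readings. It is 29.0% against 41.1% to 43.7% with all UMIs. In thinned cells it is 28.8% against 39.2% to 40.8%, where its bar overlaps that of the naive population.

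The first question was which genes differ between CD27-only and CD11b-only cells whatever the feeding. CD27-only cells had more Ltb, Emb, Tcf7, Il7r and Cxcr3 RNA, genes of the immature NK list used below, and more Cd160 RNA. They also had more RNA for ribosomal and nucleolar proteins. CD11b-only cells carried more Cx3cr1, Klrg1, Zeb2, S1pr5, Cma1 and Ly6c2 and more of the perforin and granzyme A genes. Counts were summed per population and gate and scaled to CPM, and edgeR's quasi-likelihood test compared the gates over the 4 populations, with the population as a block. Of 8055 genes tested, 581 (7.21%) were higher in CD27-only and 391 (4.85%) were higher in CD11b-only cells at a Benjamini-Hochberg adjusted p under 0.05. Of these 972 genes, 857 had the same direction in each of the 4 populations. The gates did not overlap across populations for 268 of the 581 and 275 of the 391 called genes. A lack of overlap is thus common among called genes and does not set the genes named below apart. At 2-fold or more there were 60 and 31 genes. The median log2 fold change of all tested genes was 0.0021. The balance of the calls depends on the scaling: with library totals in place of TMM factors, 409 genes were higher in CD27-only and 700 in CD11b-only cells, so that 36.9% of the calls rather than 59.8% were on the CD27-only side, and the median of all genes moved to -0.075. The populations differ in feeding and share a lane, so the p-values concern these 4 samples only and cover no spread between replicate mice. The test also draws its estimate of spread in part from all genes together. A very small p-value therefore does not rest on the 4 samples of that gene alone.

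**Figure D2:**
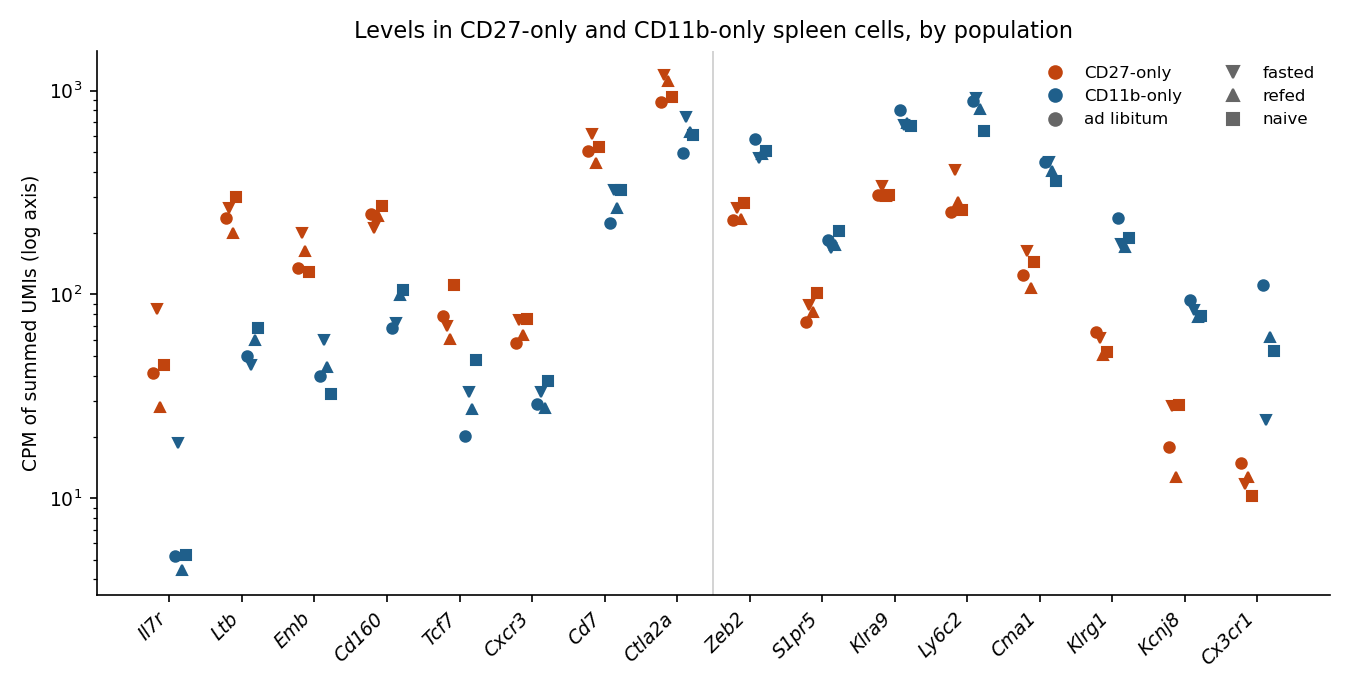
CPM (UMIs of a gene scaled to an equal total in each sum, log axis) of 16 genes in the CD27-only (orange) and CD11b-only (blue) sums of the 4 spleen populations, each with its own marker. The 8 genes left of the line were higher in CD27-only and the 8 right of it higher in CD11b-only cells, with no overlap between the gates for any of them. The 16 were picked from the named genes, which favours such a lack of overlap.

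Ltb, which encodes lymphotoxin beta, a membrane ligand of lymphoid tissue organisation, had the largest positive change after Cd3d among the called genes at 50 CPM or more. Its level was 237, 267, 201 and 300.4 CPM in the CD27-only cells of the ad libitum, fasted, refed and naive populations, and 50.1, 45.1, 60.1 and 68.6 CPM in the CD11b-only cells. The gates did not overlap, and the fitted log2 fold change was 2.23 (SE 0.088, edgeR adjusted p = 4.63e-27). Emb, which encodes the cell surface glycoprotein embigin, reached 136, 199.98, 163 and 130 CPM in CD27-only against 39.7, 59.6, 44.0 and 32.5 CPM in CD11b-only cells (log2 fold change 1.90, SE 0.094, edgeR adjusted p = 8.32e-25). Here too the lowest CD27-only sum was above the highest CD11b-only sum.

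Tcf7 encodes TCF1, a transcription factor of early NK and T cells. It stood at 78.5, 70.3, 60.7 and 111 CPM in CD27-only cells and at 20.2, 33.3, 27.3 and 47.5 CPM in CD11b-only cells, which did not overlap (log2 fold change 1.47, SE 0.13, edgeR adjusted p = 1.53e-13). Il7r, the interleukin 7 receptor alpha chain of early lymphoid cells, had 41.0, 85.3, 28.0 and 45.3 CPM in CD27-only against 5.21, 18.7, 4.45 and 5.27 CPM in CD11b-only cells (log2 fold change 2.68, SE 0.20, edgeR adjusted p = 3.53e-17). Within each gate the fasted population had the most Il7r. Cxcr3, the receptor for interferon-induced chemokines, had 57.7 to 76.1 CPM in CD27-only and 27.8 to 37.8 CPM in CD11b-only cells (log2 fold change 1.16, SE 0.12, edgeR adjusted p = 2.70e-11). Cd160, an activating receptor, had 213 to 272 against 68.4 to 105 CPM (log2 fold change 1.61, SE 0.081, edgeR adjusted p = 1.04e-22).

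The 12 genes of largest positive change above 50 CPM were Cd3d (2.92), Ltb, Emb, Cd160, Tcf7, Cd28 (1.23), Cxcr3, Plac8 (1.05), Nrgn (1.04), Thy1 (0.99), Cd7 (0.97) and Serpina3g (0.96), with log2 fold changes in parentheses. Thy1 and Cd7 are surface proteins of T cells and of immature NK and innate lymphoid cells. After the values were seen, the other CD3 chains were looked at as well, and Cd3e (3.90) and Cd3g (2.57) were also higher in CD27-only cells. Cd3d had 90.4, 56.1, 43.8 and 80.2 CPM in CD27-only against 8.47, 13.2, 6.12 and 13.2 CPM in CD11b-only cells. CD3 chains belong to the T cell receptor complex.

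T cell genes moved with the CD27-only gate in part. The summed level of 11 T cell markers was 423 to 635 CPM in CD27-only and 230 to 281 CPM in CD11b-only cells, with Cd4 at 0 in every sum. Cells with at least 3 UMIs of other types' markers, T and B cell lists included, were 484 of 1015 CD27-only (47.7%) and 473 of 1680 CD11b-only cells (28.2%). Those cells are left out in an alternative given at the end. By a narrower rule, cells with at least 3 UMIs of 7 T cell defining genes were 49 CD27-only (4.83%) and 4 CD11b-only cells (0.238%). Without them, a choice made after seeing the data, 534 and 330 genes were called, all 24 genes of largest change were called again, and none of the genes called before had turned direction. Tnfsf10 (0.79, edgeR adjusted p = 0.12), Hk2 (0.80, adjusted p = 0.063) and Usp18 (0.48, adjusted p = 0.15) lost their call. The log2 fold change of Cd3d then fell to 1.06 (edgeR adjusted p = 0.0029). Cd3d is 1 of the 7 genes that chose the cells left out, so its fall was set by that choice. The log2 fold change of Ltb was 2.08 and that of Tcf7 1.37. Cells with fewer than 3 UMIs of the 7 genes remained. The 9 markers of type 1 innate lymphoid cells, Il7r and Tnfsf10 among them, summed to 57.0 to 119 CPM in CD27-only and 18.4 to 38.8 CPM in CD11b-only cells, and their part in the result was not tested. The 9 NK markers stood at 21074 to 24100 CPM in CD27-only and 30520 to 33922 CPM in CD11b-only cells. B cell markers summed to 100.3 to 144 against 61.8 to 66.8 CPM, with Ms4a1, Ebf1 and Pax5 at 0, and most of it was Ighm. Monocyte or macrophage markers had 30.1 to 79.5 against 43.9 to 74.0 CPM and neutrophil markers 29.1 to 42.2 against 36.1 to 48.3 CPM.

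On the CD11b-only side, Cx3cr1 stood lowest in CD27-only cells. It encodes the fractalkine receptor of patrolling mature NK cells. Its level was 111, 24.3, 61.8 and 52.7 CPM in the CD11b-only cells of the ad libitum, fasted, refed and naive populations and 14.9, 11.7, 12.7 and 10.3 CPM in the CD27-only cells. That is 4.90-fold higher in CD11b-only cells (log2 fold change -2.29, SE 0.17, edgeR adjusted p = 7.83e-16), with the smallest gap in the fasted population. Klrg1, an inhibitory receptor of terminally mature NK cells, had 238, 176, 171 and 190 CPM in CD11b-only against 65.4, 61.1, 50.7 and 52.5 CPM in CD27-only cells (log2 fold change -1.68, SE 0.087, edgeR adjusted p = 4.41e-24). The gates were far apart in each population.

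Zeb2, a transcription factor needed for terminal NK maturation, had 583, 469, 489 and 504 CPM in CD11b-only and 232, 267, 233 and 280 CPM in CD27-only cells (log2 fold change -0.96, SE 0.063, edgeR adjusted p = 5.13e-18). S1pr5, the sphingosine 1-phosphate receptor by which mature NK cells leave the marrow, had 169 to 204 against 73.1 to 102 CPM (log2 fold change -1.03, SE 0.082, edgeR adjusted p = 6.58e-16). Cma1, a mast cell type protease, had 362 to 447 against 108 to 163 CPM (log2 fold change -1.59, SE 0.071, edgeR adjusted p = 2.86e-24). None of the 3 overlapped between gates. The 12 genes of largest negative change were completed by Kcnj8 (-1.962), Entpd1 (-1.56), which encodes the ectonucleotidase CD39, Rac3 (-1.42), Ly6c2 (-1.39), Gpc1 (-1.12), Klra9 (-1.11) and Timp2 (-0.95).

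For most of these 24 genes, cells with both or neither gate gene lay between the 2 gates. The mean of the 4 populations lay between the gate means for 22 genes in the cells with both and for 23 in the cells with neither. The 24 genes were chosen for their distance between the gates, which favours such an order. The share over all genes was not computed, so no conclusion is drawn from these counts. Klrg1, for example, averaged 57.4 CPM in CD27-only, 101 CPM in cells with both and 194 CPM in CD11b-only cells. Zeb2 averaged 253, 328 and 511 CPM in the same order. Ltb ran the other way, with 251, 124 and 56.0 CPM. The gates also differed more when the edge of the rule was drawn harder: with at least 2 UMIs of the gate gene, the median absolute log2 fold change of the 24 genes was 1.91 against 1.31.

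**Figure D3:**
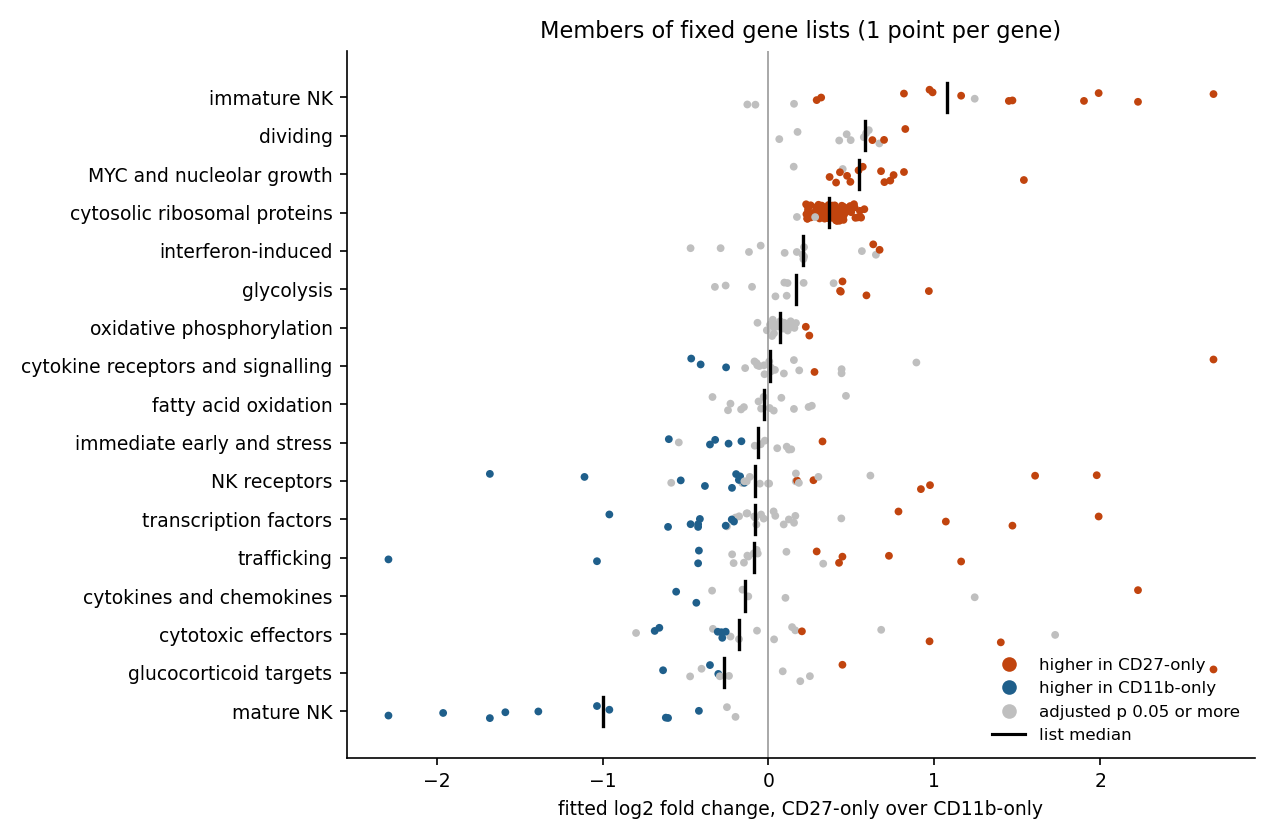
Fitted log2 fold change of CD27-only over CD11b-only for the tested members of 17 gene lists, 1 point per gene. Orange and blue points passed an adjusted p of 0.05, grey points did not, and the black bar is the list median. The immature NK (1.08), MYC and nucleolar growth (0.54) and cytosolic ribosomal protein (0.36) lists lie to the right, and the mature NK list (-0.997) to the left.

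The 17 gene lists place these genes in their groups. They were chosen with earlier results of these data known, so they are a description and no independent support. Over all genes, 7.21% were called higher in CD27-only and 4.85% higher in CD11b-only cells. Of 16 immature NK genes, 12 were higher in CD27-only and 0 in CD11b-only cells, with a list median of 1.08 beside 0.0021 for all genes. Beyond those above they included Myb (1.99) and Kit (1.45), regulators of progenitor cells, Ctla2a (0.82), Thy1, Tnfsf10 and Cd69. Of 12 mature NK genes, 0 were higher in CD27-only and 10 were higher in CD11b-only cells (median -0.997). In the 4 populations the immature median ran from 0.57 in the fasted to 1.04 in the refed and the mature median from -1.30 in the ad libitum to -0.81 in the fasted population, on the scale of log2 ratios of CPM + 5.

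Among 30 transcription factors, 4 were higher in CD27-only cells, namely Myb, Tcf7, Ikzf2 (1.07) and Tox (0.78), and 9 in CD11b-only cells. The 9 were Zeb2, Prdm1 (-0.61), which encodes Blimp-1, Irf8 (-0.47), Klf2 (-0.42), which controls lymphocyte exit from tissue, Bhlhe40 (-0.41), Hopx (-0.26), Id2, Klf6 and Runx1. The T-box factors that define NK cells were not called. Eomes had 209 to 250 CPM in CD27-only and 199 to 288 CPM in CD11b-only cells (log2 fold change 0.031, SE 0.067, edgeR adjusted p = 0.84). Tbx21, the gene of T-bet, had 112 to 136 against 131 to 179 CPM (log2 fold change -0.20, SE 0.077, edgeR adjusted p = 0.083). It was lower in CD27-only cells within each of the 4 populations. Tbx21 was called with library totals (edgeR adjusted p = 0.0086) and in the gate of at least 2 UMIs (edgeR adjusted p = 0.0063). Prdm1 lost its call without the ad libitum population (adjusted p = 0.12), and Ikzf2 likewise (adjusted p = 0.067).

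Of 28 tested NK receptor genes, 6 were higher in CD27-only and 9 in CD11b-only cells. The 6 included Slamf6 (1.98), Cd160, Cd7 and Klra6 (0.92). The 9 included Klrg1, Klra9, Klra3 (-0.53), Klra8 (-0.38), Klrd1 (-0.20), Ncr1 (-0.18) and Klra4 (-0.17). Ly49 receptors are encoded by the Klra genes, which are near-identical copies, so their separate values are uncertain where reads could be split between them.

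The main cytotoxic effector genes were higher in CD11b-only cells. Gzma, the granzyme A gene, had 19744, 16997, 17883 and 16956 CPM in CD11b-only and 11392, 12302, 10258 and 9329 CPM in CD27-only cells (log2 fold change -0.66, SE 0.047, edgeR adjusted p = 7.12e-10, 0.13 without the ad libitum population). Prf1, the pore-forming perforin gene, had 430, 338, 387 and 404 against 247, 225, 248 and 191 CPM (log2 fold change -0.69, SE 0.064, edgeR adjusted p = 7.06e-13). For both genes the gates did not overlap. Gzmb, the granzyme B gene, had 1337, 1115, 1259 and 932 CPM in CD11b-only and 791, 484, 868 and 422 CPM in CD27-only cells and did not overlap either, but was not called (log2 fold change -0.80, SE 0.16, edgeR adjusted p = 0.076). It passed under 13 of the 17 alternatives, DESeq2 (adjusted p = 2.69e-05) and leaving out the fasted, the refed or the naive population (adjusted p = 0.012, 2.44e-17 and 3.75e-29) among them. Gzmm, granzyme M, went the other way with 48.1, 23.4, 53.9 and 42.2 against 16.3, 14.6, 22.8 and 14.1 CPM (log2 fold change 1.40, SE 0.17, edgeR adjusted p = 8.26e-10). Over the whole list of 19, 3 were higher in CD27-only and 6 in CD11b-only cells.

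Chemokine genes followed the effector genes in part. Ccl5 had 20910 to 28205 CPM in CD11b-only and 13732 to 22639 CPM in CD27-only cells. The ranges overlapped across populations, yet CD11b-only was higher within each of the 4 (log2 fold change -0.44, SE 0.036, edgeR adjusted p = 1.07e-14, 0.26 without the population block). Ccl3 was higher in CD11b-only cells as well (log2 fold change -0.56). Ifng had 208 to 286 against 151 to 208 CPM and was not called (log2 fold change -0.34, SE 0.12, edgeR adjusted p = 0.11, and under 0.05 in 6 of the 17 alternatives). Xcl1, a chemokine that draws cross-presenting dendritic cells, was higher in CD27-only cells in every population but by unequal amounts. It had 776, 280, 892 and 739 CPM in CD27-only and 256, 243, 323 and 363 CPM in CD11b-only cells of the ad libitum, fasted, refed and naive populations, and the test over the 4 did not pass (log2 fold change 1.24, SE 0.29, edgeR adjusted p = 0.12). It passed in 7 of 17 alternatives, and without the fasted population (log2 fold change 1.46, adjusted p = 1.50e-07) among them.

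Genes of growth were higher in CD27-only cells. Of 82 tested cytosolic ribosomal protein genes, 80 were higher in CD27-only and 0 in CD11b-only cells, with a median of 0.36 (0.29 with library totals). Rps20 led with 4199, 3710, 4350 and 3941 CPM against 2808, 2687, 3045 and 2876 CPM. Of 15 MYC and nucleolar growth genes, 13 were higher in CD27-only cells and 0 in CD11b-only cells (median 0.54), among them Srm (1.54), which makes spermidine, Dkc1 (0.82), a pseudouridine synthase, and Myc (0.73). In cells thinned to 1500 UMIs, where 7 of the growth genes could be tested, 0 were called and the median was 0.15. The ribosomal count was 68 of 82 there. Of 14 glycolysis genes, 5 were higher in CD27-only cells, Hk2 (0.97), Pgam1 (0.59), Gapdh (0.45), Ldha and Gpi1 (0.44), and 0 of the 10 that could be tested in the thinned cells. Pgam1 turned to -0.082 there.

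Division genes separated the gates weakly. Of 12 tested, 3 were called, Nusap1 (0.83), Mcm5 (0.70) and Birc5 (0.63), all higher in CD27-only cells, with a list median of 0.58. Mki67, the proliferation marker, had 73.1, 20.9, 41.7 and 79.2 CPM in CD27-only against 44.3, 16.6, 56.8 and 20.2 CPM in CD11b-only cells. The order turned in the refed population, and the difference was not called (log2 fold change 0.61, SE 0.43, edgeR adjusted p = 0.53). Without the 5% of cells with most UMIs, 0 of the division genes were higher in CD27-only cells, 1 was higher in CD11b-only cells, and the median was -0.029.

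The oxidative phosphorylation, fatty acid oxidation, glucocorticoid, stress and interferon lists are described next. Of all genes, 7.21% were called higher in CD27-only and 4.85% higher in CD11b-only cells. The counts in these lists are small, and no conclusion is drawn from them. In the list of 25 oxidative phosphorylation genes, 2 were higher in CD27-only and 0 in CD11b-only cells (median 0.071), namely Atp5g1 (0.25) and Cox5a (0.23, -0.041 in thinned cells). Of 15 fatty acid oxidation genes, 0 passed the edgeR test in either direction, 3 had an unadjusted p under 0.05, and DESeq2 called 0. Of 12 glucocorticoid targets, 2 were higher in CD27-only and 3 in CD11b-only cells, the latter Sgk1 (-0.64), Dusp1 (-0.35) and Tsc22d3. Of 14 immediate early and stress genes, 1 was higher in CD27-only, Fosb (0.33), and 5 in CD11b-only cells, among them Dusp2 (-0.60), Dusp1 and Btg2 (-0.32). Of 14 interferon-induced genes, 2 were higher in CD27-only cells, Bst2 (0.67) and Usp18 (0.63), of which Usp18 passed in 6 of 16 alternatives.

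Most cytokine receptor genes were not called, and genes for homing signals split by gene. Of 22 cytokine receptor and signalling genes, 17 were not called, with a list median of 0.0096 beside 0.0021 for all genes. Over all genes, 7.21% were higher in CD27-only and 4.85% in CD11b-only cells. Il7r and Il2rb (0.28), a chain of the interleukin 2 and 15 receptors, were higher in CD27-only cells. Il18rap (-0.47), Il12rb2 (-0.41, 0.26 in thinned cells) and Ifngr1 were higher in CD11b-only cells. Of 19 trafficking genes, 5 were higher in CD27-only cells, Cxcr3, Ccr2 (0.73) and Cxcr4 (0.45) among them. Cx3cr1, S1pr5, Itgb2 (-0.42) and Klf2 were higher in CD11b-only cells. Itgb2 encodes CD18, the partner chain of CD11b.

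The second question was whether the gates differ in what feeding does. Each feeding state had 1 population per gate, so no test was possible. The values are log2 ratios of CPM + 5, which understate low genes, with a 95% interval for counting error only, and a gene counts here when it is past 1.5-fold and its interval leaves out 0. In a sum over cells, more cells with a gene and more UMIs per cell cannot be told apart. A list member was measured when it reached 20 CPM in either population of a comparison. A member that passed through a single population was therefore bound to be higher there. Comparing fasted with ad libitum populations, 92 genes were higher (3.3%) and 92 lower (3.3%) of 2785 in CD27-only cells, and 40 were higher (1.4%) and 34 lower (1.19%) of 2866 in CD11b-only cells. Comparing refed with fasted populations, 103 were higher (3.69%) and 96 lower (3.44%) of 2793 in CD27-only cells, and 46 were higher (1.6%) and 45 lower (1.56%) of 2882 in CD11b-only cells. The fasted population enters both comparisons, so they are not independent. The CD27-only sums are mostly smaller and so vary more by counting alone, and the counts of the gates were not tested against each other.

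Pik3ip1, Tsc22d3 and Txnip were higher when fasted in both gates. Pik3ip1, which restrains phosphoinositide 3-kinase, had 17.8 CPM in ad libitum, 85.3 in fasted, 20.1 in refed and 19.5 in naive CD27-only cells, and 16.6, 77.6, 16.1 and 22.0 CPM in CD11b-only cells. The fasted population stood alone in each gate, and the log2 ratio to ad libitum was 1.98 (1.48 to 2.49) in CD27-only and 1.94 (1.52 to 2.34) in CD11b-only cells. Tsc22d3, the glucocorticoid-induced leucine zipper, had 94.5, 213, 70.2 and 65.8 CPM in the same order in CD27-only and 104, 296, 94.1 and 95.8 CPM in CD11b-only cells (1.13 and 1.47). Txnip, a brake on glucose uptake, had 192, 573, 183 and 218 CPM in CD27-only and 260.2, 569, 315 and 277 CPM in CD11b-only cells (1.55 and 1.11).

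The size of these ratios was close in the gates for some genes and not for others. The difference of the log2 ratios, CD27-only minus CD11b-only, was 0.049 (-0.57 to 0.67) for Pik3ip1 and 0.018 (-0.55 to 0.59) for Fkbp5, the co-chaperone of the glucocorticoid receptor. It was -0.34 (-0.68 to 0.0036) for Tsc22d3 and 0.52 (-0.22 to 1.27) for Cpt1a, which imports fatty acids into mitochondria. For Txnip it was 0.44 (0.21 to 0.67), which leaves out 0. As a list, 10 of 10 measured glucocorticoid targets were higher when fasted in CD27-only cells (median 0.99 beside 0.035 for all genes) and 8 of 10 in CD11b-only cells (median 0.71 beside -0.0030). After refeeding, 9 of 10 were lower than when fasted in each gate (medians -1.14 and -0.94).

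**Figure D4:**
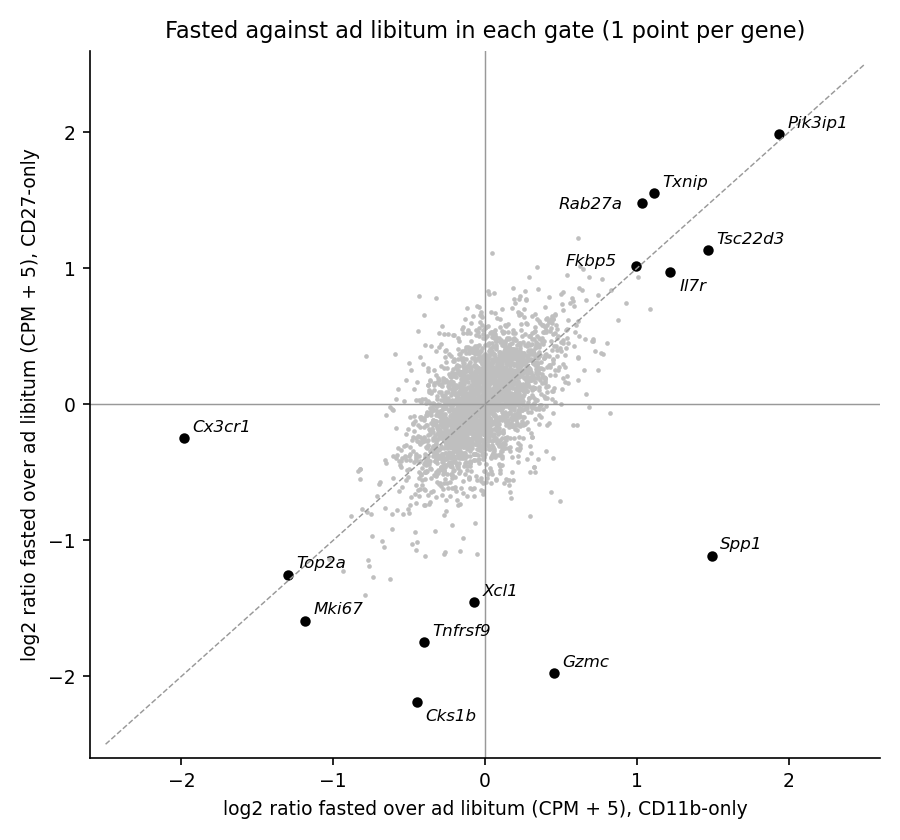
Log2 ratio of CPM + 5 in the fasted over the ad libitum population, in CD11b-only cells (horizontal) against CD27-only cells (vertical), 1 point per gene at 50 CPM or more in at least 1 of the 4 sums. Pik3ip1 lies near the dashed line of equal ratios, Txnip above it and Tsc22d3 below it. Cx3cr1 is at -1.98 horizontally and -0.25 vertically, and Xcl1, Tnfrsf9 and Cks1b are low mainly on the vertical axis.

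Some genes had a feeding ratio in 1 gate and little in the other. In all, the interval of the difference left out 0 for 348 of 2840 genes (12.3%), where counting error alone sets the interval. Xcl1 had a log2 ratio of -1.45 (-1.63 to -1.28) in CD27-only and -0.070 in CD11b-only cells, a difference of -1.38 (-1.63 to -1.14). In the fasted population the Xcl1 level of the CD27-only cells thus came close to that of the CD11b-only cells. Tnfrsf9, which encodes the activation receptor 4-1BB, had 105, 27.6, 101 and 61.7 CPM in ad libitum, fasted, refed and naive CD27-only cells and 62.2, 45.7, 69.6 and 58.9 CPM in CD11b-only cells (log2 ratios -1.75 and -0.41, difference -1.34, -1.94 to -0.75). Cks1b, a cofactor of cyclin-dependent kinases, had 63.6 CPM in ad libitum and 10.04 in fasted CD27-only cells (difference of the log2 ratios -1.74, -2.49 to -0.99).

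Cx3cr1 showed the reverse. Its log2 ratio was -1.98 (-2.43 to -1.55) in CD11b-only and -0.25 in CD27-only cells, a difference of 1.73 (0.94 to 2.53). The gene was already low in CD27-only cells, at 10.3 to 14.9 CPM in all 4 populations. In CD11b-only cells it was 1.19 higher in refed than in fasted cells on the log2 scale (0.70 to 1.68) and remained 0.79 lower than in ad libitum cells. After Cx3cr1, the largest positive differences were those of Zmym5 (1.23), Kif1b (1.14), Cnot4 (1.11) and Ssh1 (1.07).

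**Figure D5:**
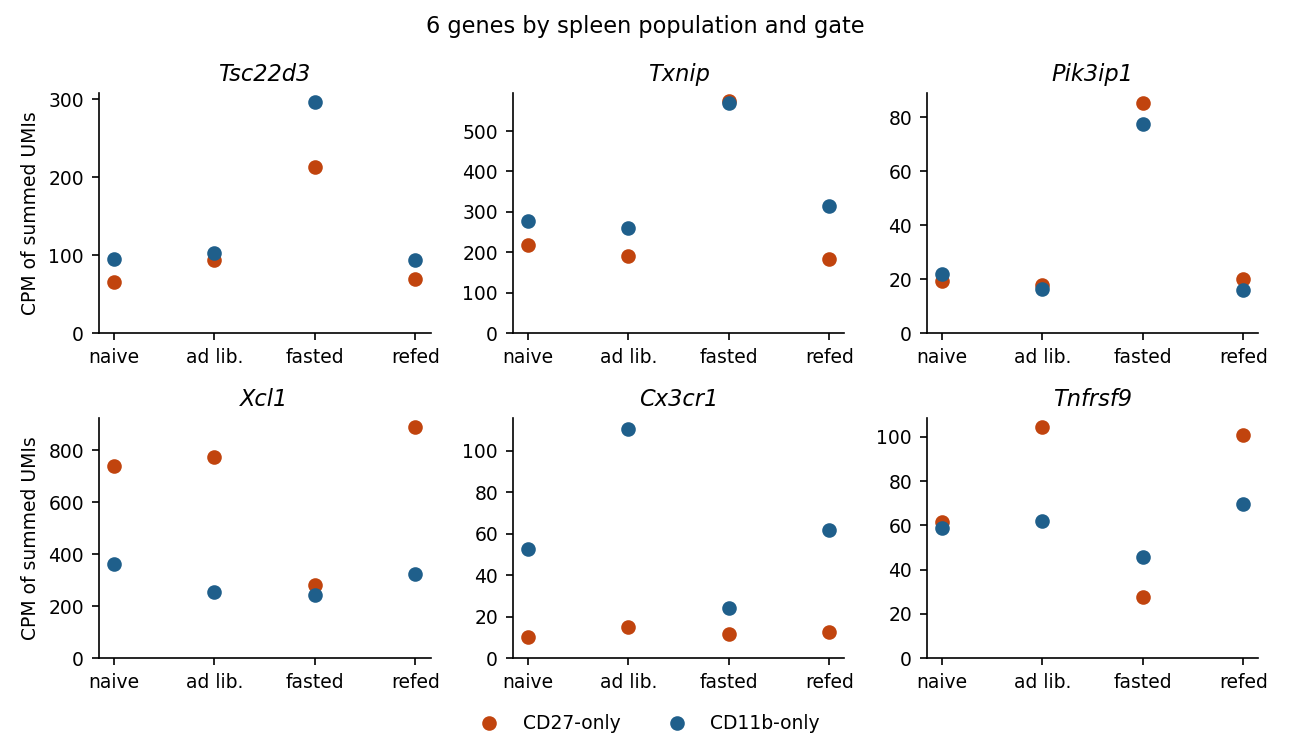
CPM of summed UMIs of 6 genes in CD27-only (orange) and CD11b-only (blue) cells of the naive, ad libitum, fasted and refed spleen populations, 1 point per sum. Tsc22d3, Txnip and Pik3ip1 are highest when fasted in both gates, Xcl1 and Tnfrsf9 are lowest when fasted in CD27-only cells, and Cx3cr1 is lowest when fasted in CD11b-only cells.

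Division genes were lower when fasted in both gates, and growth genes in CD27-only cells. Of 11 measured division genes, 11 were lower in CD27-only cells (median -1.22), and 9 of 9 were lower in CD11b-only cells (median -0.79). These medians shrank to -0.21 and turned to 0.012 without the 5% of cells with most UMIs. In CD27-only cells Mki67 had a log2 ratio of -1.59 (-2.13 to -1.06, -0.41 without the deepest cells). In CD11b-only cells Top2a, the mitotic topoisomerase, had -1.30 (-1.69 to -0.93), the histone gene Hist1h1b -1.03, the tubulin gene Tuba1b -0.94 and the phosphatase gene Ptpn6 -0.82. Of 14 MYC and nucleolar growth genes, 13 were lower in fasted CD27-only cells (median -0.54), whereas in CD11b-only cells 9 of 13 were lower with a median of -0.042. After refeeding the medians were 0.48 and 0.038 over fasted. The difference between the gates was not tested.

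The interferon-induced list was also mostly lower when fasted in both gates. In CD27-only cells 6 of 7 measured members were lower (median -0.44 beside 0.035 for all genes). In CD11b-only cells 7 of 8 were lower (median -0.33 beside -0.0030). After refeeding 11 of 11 were higher than when fasted in CD27-only cells (median 0.73) and 6 of 7 in CD11b-only cells (median 0.21). The 11 include members that reached 20 CPM in the refed population alone, whose direction was thus fixed by that minimum. Rab27a, which moves cytotoxic granules, and Qrfp, a neuropeptide gene, were among the 5 highest in fasted CD27-only cells, with log2 ratios of 1.48 and 1.22. Tcp11l2 (1.09) was among the 5 highest in fasted CD11b-only cells. In refed over fasted CD11b-only cells the heat shock genes Hspa1b (1.43) and Stip1 (1.19) were among the 5 highest, and Ddit4 (-1.26) and Klhl6 (-1.03) among the 5 lowest. Ppa1, a pyrophosphatase gene, was among the highest in refed over fasted CD27-only cells (1.957).

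Some secreted effector genes rested on few cells. In CD27-only cells Gzmc had 420 CPM in ad libitum, 103 in fasted, 613 in refed and 93.6 in naive cells, a fasted over ad libitum ratio of -1.98, which was -0.79 without its highest cell and 0.61 without the deepest cells. Spp1 had a log2 ratio of 1.495 in fasted over ad libitum CD11b-only cells, which turned to -0.81 without the cell with most UMIs of it. Gzmd had 2.08 in refed over fasted CD27-only cells, which turned to -0.63 in the same way. Their differences between gates, -2.43 for Gzmc and -2.61 for Spp1, rest on those cells.

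The authors' clusters, deposited with the series and made by a method not given in the sources used here, used all genes and are a description only. Cluster 2 held 26.7% of the CD27-only and 3.87% of the CD11b-only cells, and cluster 4 held 6.50% and 24.05%. Clusters 1 and 3 held cells of both gates in more even shares, 23.8% against 19.4% and 16.1% against 23.3%.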

How the data were processed

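The authors deposited a matrix of UMI counts per cell and gene, with a hashtag classification, a list of tags and cluster numbers. The counts came from seqc, per the labels' protocol, and the genome build was mm10, per the submitters' processing notes. For the classification and the clusters no method is named in the sources at hand. The matrix held 13118 cells and 16800 gene columns. Columns of the 11 repeated symbols were summed, and Itgam was one of them (3402 and 371 UMIs in spleen cells). The classification called 5606 cells (42.8%) doublets, which were left out. Doublets within 1 hashtag can remain. No further filter on cells was used, and the lowest spleen cell had 683 UMIs.

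Raw counts were summed per population and gate and tested with edgeR 4.0.16 (TMM, filterByExpr by gate, robust glmQLFit, population as block, Benjamini-Hochberg over all genes, threshold 0.05) in R 4.3.3. The test was tried on simulated data first. Feeding ratios used CPM + 5 with Clopper-Pearson 95% intervals, and list members needed 20 CPM in either population of a comparison. Alternatives used DESeq2 1.42.0 and limma 3.58.1. Other steps used Python 3.11.15, numpy 2.4.6, pandas 2.3.3, scipy 1.17.1 and matplotlib 3.10.9. Gene loci came from GENCODE M21.

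The cells, lists and tests were chosen with earlier results of these data known. Named genes were the 12 highest and 12 lowest fold changes among called genes at 50 CPM or more in the higher gate with 1 direction in all 4 populations, up to 4 called members per list by size of change (the 2 most abundant where none was called), and 21 genes of NK maturation. Feeding and gate-by-feeding comparisons named the 5 highest and 5 lowest among genes at 50 CPM or more whose interval left out 0, and 6 genes throughout. The rankings skipped gene models without a name, genes of the mitochondrial genome and genes of ribosomal proteins, haemoglobins, immunoglobulins and T cell receptors. Further genes, such as other list members, were named after their values were seen. Some genes are not reported here.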

Additional observations from a re-analysis of the deposited data

How the results depend on the processing

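Called genes in CD27-only and CD11b-only cells numbered 220 and 100 with DESeq2, where 2187 adjusted p-values were not given, 301 and 154 with no replicate block for the population, 127 and 50 in thinned cells, where 3024 genes were tested, and 255 and 129 without cells holding 3 or more UMIs of other types' markers. Giving each cell the same weight (limma) called 281 and 346. With library totals 409 and 700 were called. Leaving out 1 population each gave 338 to 551 and 218 to 399, both lowest without the ad libitum population. Of the 972 genes called, those that turned direction were 78 of 679 in thinned cells, 7 of 891 without other types' markers, 7 of 948 without the deepest cells and 1 of 972 with equal weights. For the other 13 alternatives it was 0. Birc5 turned to -0.026 without other types' markers and to -0.041 without the deepest cells, and in thinned cells Cox5a turned to -0.041, Il12rb2 to 0.26 and Pgam1 to -0.082. Of the 24 genes of largest change, the call was lost by Plac8 and Cx3cr1 without the block, by Cd28, Nrgn and Rac3 of 19 tested in thinned cells, and by Nrgn and Ly6c2 without other types' markers. The cause was not tested. The call held in 4 of 13 alternatives for Tnfsf10, 6 of 16 for Usp18, 8 of 16 for Birc5 and Cxcr4 and 8 of 17 for Cox5a.

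Counts of genes higher and lower when fasted depend on the settings. In CD27-only cells they were 46 and 59 with a pseudocount of 20 CPM, 154 and 156 with totals that leave out ribosomal protein and mitochondrial genes, and 188 and 192 with a gate of 2 or more UMIs. They were 147 higher without other types' markers and 61 lower without the deepest cells. In CD11b-only cells they were 17 and 18 with that pseudocount, 74 higher with those totals, 120 and 92 with that gate, 108 and 106 in thinned cells, and 53 lower without other types' markers. Shares of CD27-only cells without other types' markers were 20.9%, 35.6%, 34.6% and 35.5% in the ad libitum, fasted, refed and naive populations.

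Some feeding ratios turned. In fasted over ad libitum cells Gzmc of CD27-only cells was 1.02 with a gate of 2 UMIs, 0.50 without other types' markers and 0.61 without the deepest cells. In CD11b-only cells Il7r was -0.55 with that gate and -0.16 thinned, and Spp1 was -1.47 with that gate, -0.32 thinned, -1.40 without other types' markers and -0.81 without its highest cell. In refed over fasted CD27-only cells Gzmd was -1.24 with that gate, -1.81 thinned, -0.96 without other types' markers, -0.63 without its highest cell, -0.65 without T cell defining genes and -0.70 without the deepest cells. Gzmc was -0.41 and -0.34 without other types' markers and without the deepest cells, and Spp1 was -0.062 thinned. In refed over fasted CD11b-only cells Spp1 was 0.95 with that gate, 0.64 without other types' markers and 0.44 without its highest cell. List medians turned for ribosomal proteins (0.061, fasted CD27-only cells, thinned), immature NK genes (0.13, refed over fasted CD11b-only cells, thinned) and division genes (-0.047 and -0.18 in refed over fasted CD27-only cells without other types' markers and without the deepest cells, and 0.012 in fasted CD11b-only cells without the deepest cells). The alternatives without T cell defining genes, with the first Itgam column and without the deepest cells were chosen after seeing the data.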
